A study of Mus musculus with 2 samples.

Results

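The microRNA hairpins described here lie inside the Hox gene clusters of the mouse and are Mir10a, Mir10b, Mir196a-1, Mir196a-2, Mir196b and Mir615. They were taken by symbol from GENCODE release M21, matched through their Ensembl gene identifiers, and are 6 of the 2202 hairpins counted. Reads were counted in whole heart tissue of 2 female mice aged 25 days, labelled biological replicates 2 and 1 of 1 group. Both animals are B6CASTF1/J, an F1 hybrid of the inbred strains C57BL/6J and CAST/EiJ, with no treatment and no engineered allele named in the labels. The labels give each animal its own number but 1 shared donor identifier, so reading the spread as one between animals rests on those numbers. No second group was analysed here, and errors are SD over the 2 animals.

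A microRNA hairpin is a folded precursor from which short mature strands, the 5p and 3p arms, are cut. The mature strand guides silencing complexes to messenger RNAs, mainly through its seed, bases 2 to 8. Hox genes encode transcription factors that give cells their position along the body axis. Within a cluster they are ordered so that low-numbered genes at the 3′ end are active early and towards the head, and high-numbered genes at the 5′ end later and towards the tail. The miR-10 hairpins sit next to Hox genes of paralogue group 4 and the miR-196 hairpins on the 5′ side of group 9 genes, and both families are known to target Hox messages. Members of the miR-10 family are also studied in blood vessels, where miR-10 is known from zebrafish as a regulator of vessel growth.

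The mature 5p arms below are shown because the seed and a single base decide which reads can be told apart. Capitals mark the seed, letters run 5′ to 3′, and the sequences are RefSeq's for the GRCm38.p6 build, which shares its coordinates with mm10.

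miR-10a-5p: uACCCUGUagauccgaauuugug
miR-10b-5p: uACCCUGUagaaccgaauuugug
miR-196a-5p: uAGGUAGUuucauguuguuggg
miR-196b-5p: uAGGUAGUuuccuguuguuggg
miR-100-5p: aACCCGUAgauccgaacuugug
miR-615-3p: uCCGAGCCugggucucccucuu

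The miR-10 arms shared the seed ACCCUGU and differed by 1 base, U12A, counted from 1 at the 5′ end with the miR-10a base first. The miR-196 arms shared the seed AGGUAGU and also differed by 1 base, A12C, with the miR-196a base first. Among 1738 mature arms in the RefSeq table, no arm outside the members carried either of these seeds. All 6 members had arms in that table, each of 22 or 23 nt, so no correction of counts for length was made. How efficiently each sequence enters a library was not measured. Comparisons between hairpins are therefore of counted reads and not of abundance. miR-100-5p, from a family related to miR-10, shared an unbroken run of 11 nt with miR-10a-5p but had the seed ACCCGUA.

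The Mir196a hairpins give the same mature 5p arm from different chromosomes. Their precursor sequences are shown with the run they share in capitals, which is the whole arm of 22 nt.

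Mir196a-1: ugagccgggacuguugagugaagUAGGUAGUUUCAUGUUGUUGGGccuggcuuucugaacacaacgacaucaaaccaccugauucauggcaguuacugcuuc
Mir196a-2: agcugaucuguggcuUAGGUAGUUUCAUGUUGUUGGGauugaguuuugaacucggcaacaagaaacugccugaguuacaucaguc

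A read of that arm matches both places, and reads matching several places stand in the tables in a row of their own, apart from the hairpin counts. The longest run shared with any other hairpin was 15 nt for Mir10a with Mir10b, 12 nt for Mir196b and 14 nt for Mir615. The 5p arms of these 4 hairpins were each found whole in 1 of the 2202 hairpins.

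The hairpins of the miR-10 family lie just upstream of group 4 genes. Mir10a is at chr11:96317165-96317274 on the plus strand, in no annotated gene, 12030 bp after the coding region of Hoxb5 and 1495 bp before that of Hoxb4. Mir10b is at chr2:74726070-74726137 on the plus strand, in an intron of annotated transcripts of Hoxd4 and Hoxd3, and 1141 bp before the coding region of Hoxd4. Mir615 is at chr15:103014910-103015001 on the plus strand, in the intron of Hoxc5.

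The hairpins of the miR-196 family lie on the 5′ side of group 9 genes. Mir196b is at chr6:52230081-52230165 on the minus strand, 3976 bp from the coding region of Hoxa9 and 2343 bp from that of Hoxa10. It falls in exons of noncoding transcripts of the Hoxa9 gene, annotated as a processed transcript and a retained intron. Mir196a-2 is at chr15:102973350-102973434 on the plus strand, 2277 bp after the coding region of Hoxc10 and 8218 bp before that of Hoxc9, in an intron of long Hoxc5 transcripts. Mir196a-1 is at chr11:96265164-96265265 on the plus strand, in no annotated gene, 6276 bp before the coding region of Hoxb9. The Hoxb cluster has no group 10 gene, and Hoxb13 lies 68937 bp to the other side.

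**Figure D1:**
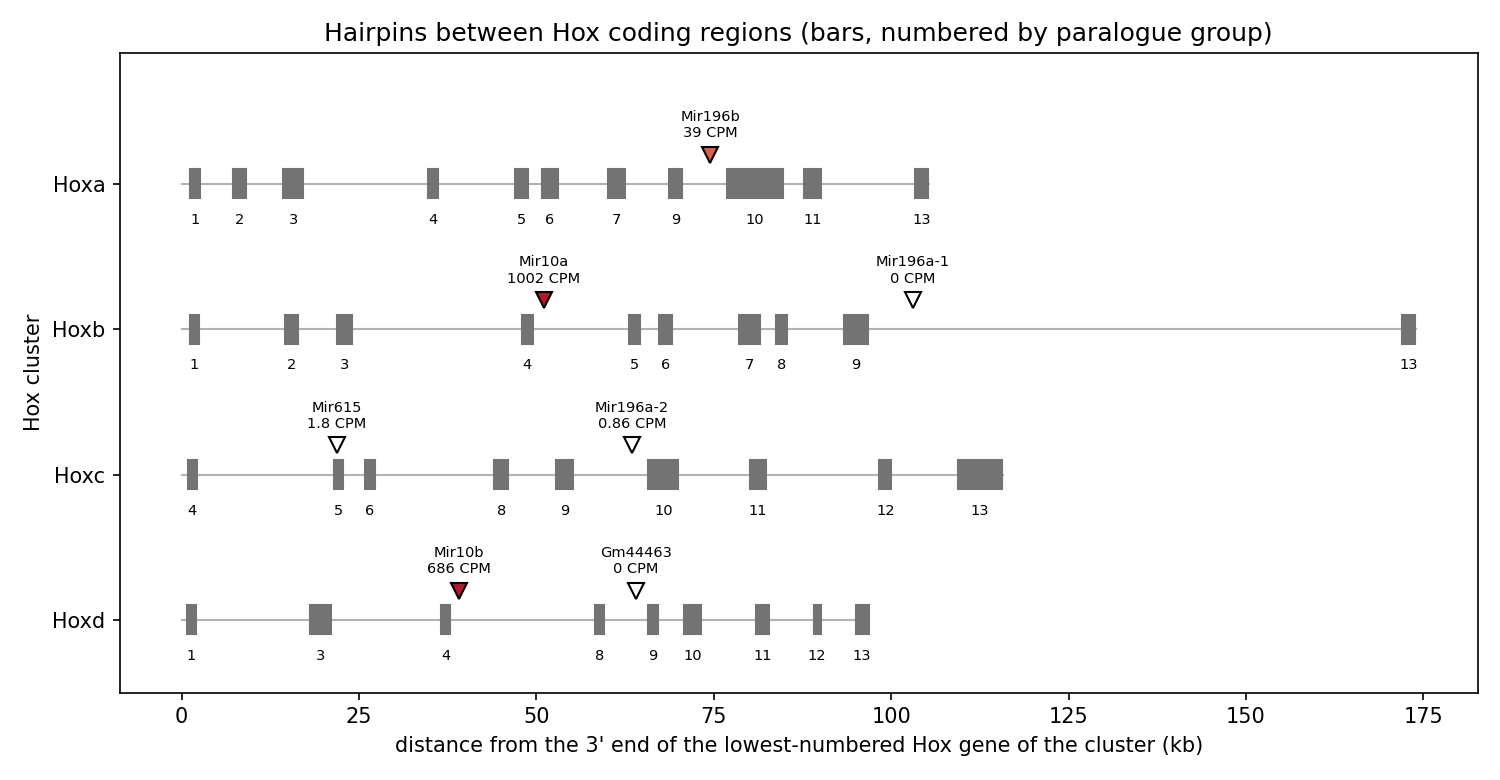
Map of the 4 Hox clusters, drawn as distance in kb from the 3′ end of the lowest-numbered Hox gene. Grey bars are coding regions numbered by paralogue group, and triangles are hairpins with their mean CPM over 2 libraries. Mir10a at 1002 CPM and Mir10b at 686 CPM stand beside group 4 genes, and Mir196b at 39.2 CPM stands on the group 9 side. Reads of the arm shared by the Mir196a hairpins are left out, so those hairpins cannot be ranked against Mir196b.

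Counted reads of the Hox clusters came almost wholly from the miR-10 hairpins. The 6 hairpins together summed to 5570 counts in replicate 2 against 2802 in replicate 1, which is 0.209% and 0.137% of all hairpin counts (95% Wilson intervals 0.204 to 0.215 and 0.132 to 0.142). The mean share was 0.173% ± 0.0514 (SD, n = 2). Mir10a and Mir10b made up 98.0% of the 6 in replicate 2 and 96.9% in replicate 1 (exact binomial intervals 97.6 to 98.4 and 96.2 to 97.5). All intervals cover counting error within 1 library only and leave out variation between animals. They treat each read as independent, although amplified copies of 1 molecule cannot be recognised in these counts. With at least 10 counts in both libraries as the rule, 3 of the 6 were detected, against 13.1% of all hairpins.

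Mir10a, known to bind messages of ribosomal proteins in mouse embryonic stem cells, was the highest of the 6 by counted reads. Replicate 2 held 3102 of its counts and replicate 1 held 1717, or 1166 CPM and 837 CPM (CPM is the count scaled to the sum of all hairpin counts; mean 1002 ± 232, SD, n = 2). By mean CPM it ranked 65 of 2202 hairpins, at rank 57 in replicate 2 and 73 in replicate 1. The median detected hairpin stood at 83.6 CPM and 104 CPM in the same libraries. By distance between the log2(CPM + 1) values of both libraries, the nearest hairpins to Mir10a outside the Hox clusters were Mir532 (0.14), Mir221 (0.25) and Mir107 (0.28).

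Mir10b, studied in human breast cancer cells for its effect on HOXD10, followed it. Replicate 2 held 2358 of its counts and replicate 1 held 998, or 886 CPM and 487 CPM (mean 686 ± 282, SD, n = 2), and ranked 74 by mean. Mir10a counts were 1.32 times those of Mir10b in replicate 2 and 1.72 times in replicate 1, so the order was the same in each library. Over the 2 animals the ranges overlapped, since Mir10b in replicate 2 stood above Mir10a in replicate 1, and no test of this difference was made. Mir10a supplied 56.8% of the counts of the pair in replicate 2 and 63.2% in replicate 1, with exact binomial intervals of 55.5 to 58.1 and 61.4 to 65.1. These intervals did not overlap, and the mean was 60.0% ± 4.55. Reads placed at the wrong hairpin of the pair would shift this share, and their number was not tested. The nearest hairpins to Mir10b were Mir411 (distance 0.39), Mir467d (0.53) and Mir542 (0.70).

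Mir196b, the Hoxa member of the miR-196 family, was the third detected hairpin. Replicate 2 held 105 of its counts and replicate 1 held 80, or 39.5 CPM and 39.0 CPM (mean 39.2 ± 0.313, SD, n = 2), at rank 180 by mean. Counting error was wider than that spread, with Wilson intervals of 32.6 to 47.8 CPM and 31.4 to 48.6 CPM. Mir10a counts were 29.5 times those of Mir196b in replicate 2 and 21.5 times in replicate 1. For Mir10b the ratios to Mir196b were 22.5 and 12.5. Levels of Mir374b (distance 0.07), Mir296 (0.10) and Mir193a (0.31) were the nearest to that of Mir196b.

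The other 3 hairpins had 5 counts or fewer in each library. Mir615 stood at 3 counts in replicate 2 and at 5 in replicate 1, or 1.13 and 2.44 CPM, with Wilson intervals of 0.383 to 3.31 and 1.04 to 5.71 CPM. Mir196a-2 had 2 counts in each library, or 0.752 and 0.975 CPM, and its intervals overlapped those of Mir615. Mir196a-1 had 0 counts in both libraries. A limit of 3 counts stands at 1.13 CPM in replicate 2 and 1.46 CPM in replicate 1. The upper Wilson limits were 1.44 and 1.87 CPM, and all of these limits bear on counted reads only. Because reads of the shared miR-196a arm match both places, these counts cannot show how abundant miR-196a was. Reads matching several places made up 41.6% of all reads in replicate 2 and 38.5% in replicate 1, and how many of them belong to miR-196a was not tested.

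**Figure D2:**
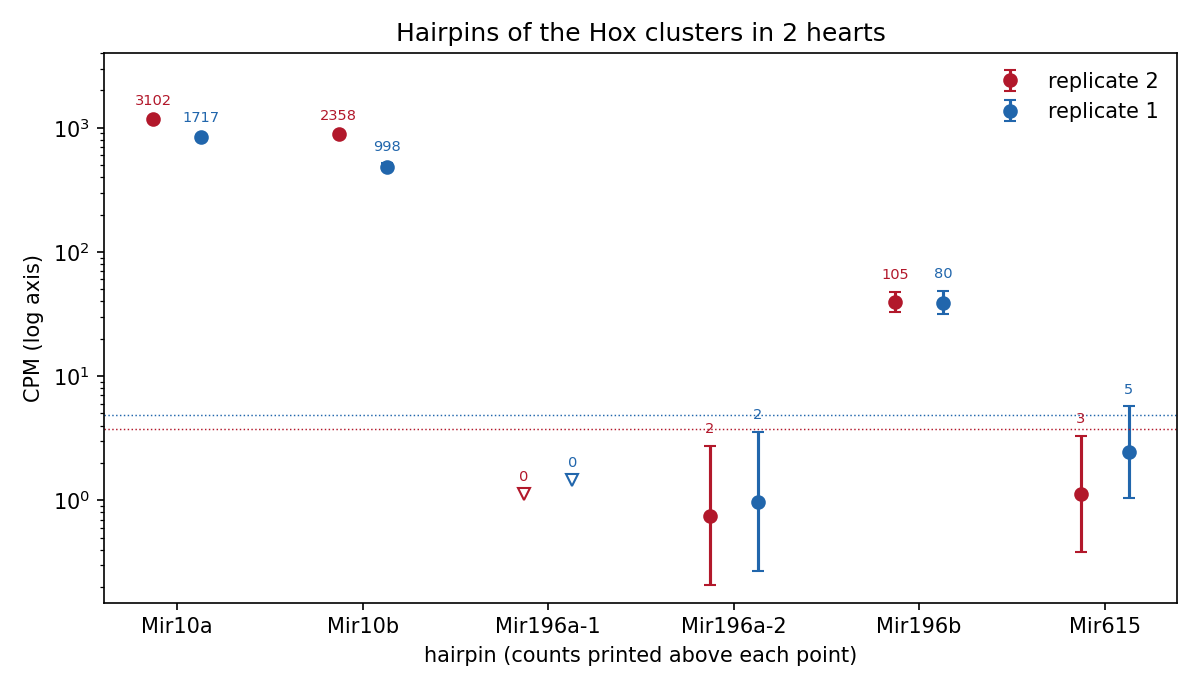
CPM of each Hox cluster hairpin on a log axis in replicate 2 and replicate 1, with 95% Wilson intervals and the counts above the points. Dotted lines mark 10 counts in each library, and open triangles mark the limit of 3 counts for Mir196a-1, which had 0. Mir10a, Mir10b and Mir196b lie above the lines in both libraries and the other 3 do not.

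Level did not follow distance from the 3′ end of the cluster in a single order. In kb from that end, the hairpins lay at 21.9 for Mir615, 39.0 for Mir10b, 51.0 for Mir10a, 63.4 for Mir196a-2, 74.5 for Mir196b and 103 for Mir196a-1. Mir615, the nearest, averaged 1.78 CPM, while Mir196b, the second farthest, averaged 39.2 CPM. As a share of the cluster's span Mir196b was the farthest, at 70.7%, and Mir196a-1 lay at 59.2%. The clusters differ in length, and Hoxc starts at group 4 where the others start at group 1, so equal distances are not equal places. By neighbouring paralogue group, both hairpins just upstream of group 4 genes stood at 487 CPM or more in each library, Mir615 within Hoxc5 at 2.44 CPM or less, and Mir196b on the group 9 side at 39.5 CPM or less. The Mir196a hairpins, also on the group 9 side, cannot be placed in this order because of their shared arm. On the group 9 side, the counts were 105 and 80 in Hoxa, 2 and 2 in Hoxc and 0 and 0 in Hoxb, with the shared arm bearing on Hoxb and Hoxc only. These 6 points in 4 clusters are a description, and no test of position was made. A further annotated hairpin of the Hoxd cluster, Gm44463 between Hoxd9 and Hoxd8 on the minus strand, had 0 counts in both libraries.

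The related miR-99 and miR-100 hairpins, which lie outside the Hox clusters, had far higher counts. Mir99a, Mir99b and Mir100 together held 8.28% of hairpin counts in replicate 2 and 5.18% in replicate 1. Mir99a counts were 45.2 times those of Mir10a in replicate 2 and 32.3 times in replicate 1, and Mir100 counts were 7.81 and 5.81 times those of Mir10a. Mir10a and Mir10b made up 2.42% of the counts of these 5 hairpins in replicate 2 and 2.49% in replicate 1, and the exact binomial intervals overlapped (2.36 to 2.48 and 2.40 to 2.59).

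**Figure D3:**
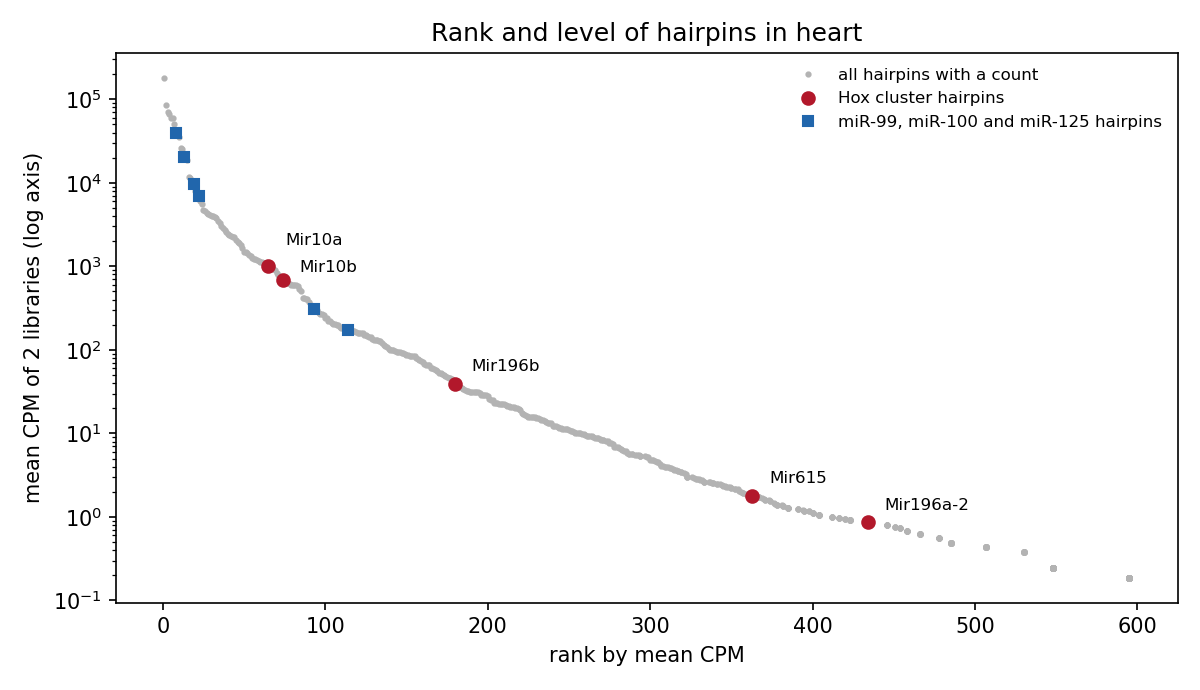
Mean CPM over 2 libraries on a log axis against rank, for all hairpins with a count. Mir10a (rank 65) and Mir10b (rank 74) lie well below Mir99a (rank 8) and Mir99b (rank 13), and Mir196b lies at rank 180. Mir196a-1, with 0 counts, is not drawn.

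The hearts were then compared with each other, to see how far the members differed between the libraries. Each animal gave 1 library, so a difference between animals cannot be told apart from one between library preparations. Counts were scaled by TMM, edgeR's trimmed mean of M-values, and hairpins that reached 10 counts in either library were compared by a two-sided exact binomial test on their counts, adjusted over all 326 hairpins by Benjamini-Hochberg. The test compares these libraries at the level of reads, not conditions, and its p does not measure variation between animals. Of the 3 members tested, 2 were called higher in replicate 2 and none lower. Over all 326 hairpins 62.6% were called, 36.2% as higher and 26.4% as lower, so most tested hairpins were called under this filter. With at least 1 count as the filter, 648 were tested and 13.3% were called higher and 14% lower. Both called members differed at least 1.5-fold, 2.13-fold for Mir10b and 1.63-fold for Mir10a, while scaling by total count put Mir10a at 1.39-fold. Of all tested hairpins 39.3% were both called and at least 1.5-fold different, 19.9% as higher in replicate 2. Scaling by total count gave 76 higher and 117 lower over all hairpins, against 118 and 86 with TMM.

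Both miR-10 hairpins were higher in replicate 2 by this test. Mir10b had a log2 ratio of replicate 2 over replicate 1 of 1.09 (exact binomial test, adjusted p = 2.12e-96), with 960 and 449 TMM-scaled CPM. For Mir10a the log2 ratio was 0.71 (exact binomial test, adjusted p = 3.72e-61), with 1263 and 773 TMM-scaled CPM. Among the log2 ratios of all tested hairpins, Mir10b stood at percentile 88.0 and Mir10a at 78.8, so larger excesses were not rare. The median log2 ratio of all tested hairpins was 0.09 with TMM and -0.14 with total counts. Relative to that median, Mir10b was at 1.01 and 1.00 and Mir10a at 0.62 and 0.62 under these scalings.

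Mir196b did not pass the test, with a log2 ratio of 0.24 (exact binomial test, adjusted p = 0.345) and 42.7 and 36.0 TMM-scaled CPM. Scaled by total count its log2 ratio was 0.02. A p that misses the threshold does not show that the hearts were alike for Mir196b. Mir615, Mir196a-1 and Mir196a-2 had too few counts to be tested.

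Of the 6 hairpins of the related list, 3 were higher in replicate 2 and 2 lower. Mir99a and Mir100 had log2 ratios of 1.19 and 1.13, close in size to that of Mir10b, and Mir99b of 0.31. Mir125a and Mir125b-1 were lower, with log2 ratios of -0.86 and -1.02, and Mir125b-2 did not pass (log2 ratio -0.02, exact binomial test, adjusted p = 0.885). Mir125b-1 and Mir125b-2 share a run of 24 nt, and the whole 5p arm was found in 2 hairpins. Reads of that arm match both places, so the Mir125b ratios, and the list median that includes them, leave such reads out. The median log2 ratio was 0.71 over the 3 tested members and 0.15 over the related list with TMM, and 0.48 and -0.08 by total count, where the sign of the related list turned.

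**Figure D4:**
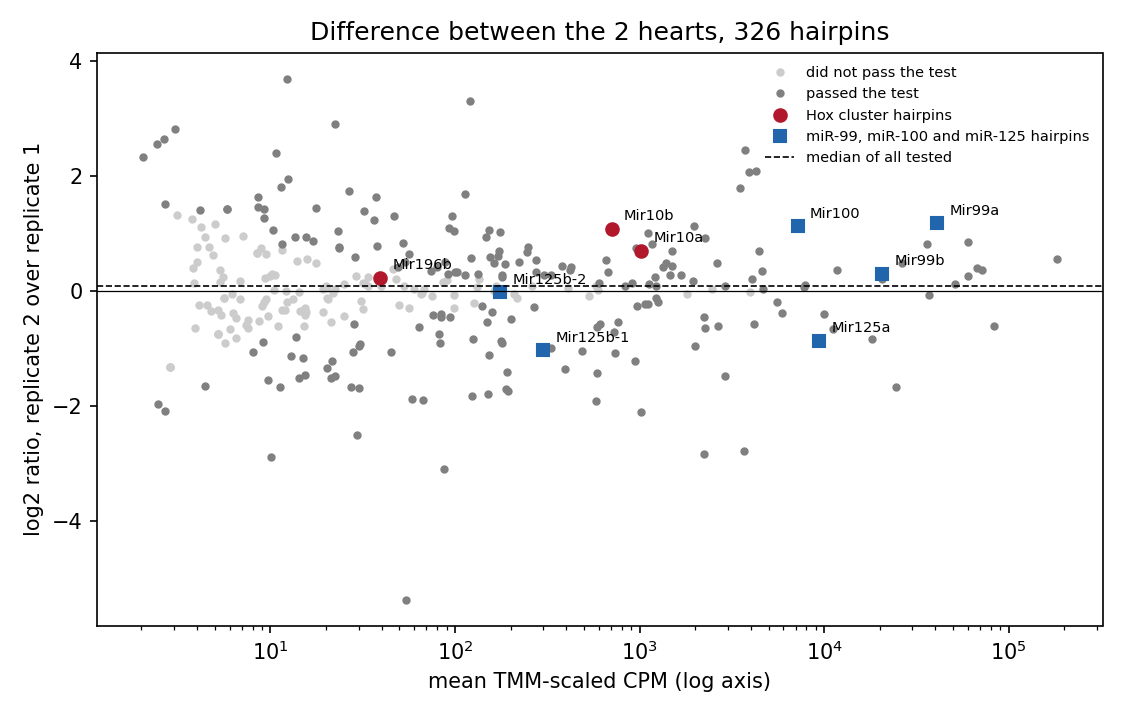
Log2 ratio of replicate 2 over replicate 1 against mean TMM-scaled CPM (log axis) for 326 hairpins. Mir10b (1.09) and Mir10a (0.71) lie above the dashed median of 0.09, beside many other hairpins that passed the test, and Mir196b (0.24) did not pass it.

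Lists of marker hairpins were set beside the tissue label, and several differed between the hearts. Of the 7 striated muscle hairpins 4 were detected, and the list held 0.831% of counts in replicate 2 and 0.449% in replicate 1. Mir208a, from a heart myosin gene, led the list at 15598 counts in replicate 2 and 3322 in replicate 1, followed by Mir499 at 6167 and 5391. Mir208b, at 297 and 391, and Mir1a-2, at 31 and 94, had lower counts in replicate 2. The remaining hairpins, Mir1a-1, Mir133a-1 and Mir133a-2, reached 8 counts at most in either library, and the skeletal muscle hairpin Mir206 reached 7. The Mir1a, Mir133a and Mir199a hairpins of these lists carry locus numbers. Reads of an arm shared between loci would fall among those matching several places, and how many did was not tested. These counts therefore cannot show how abundant miR-1a, miR-133a and miR-199a were. The endothelial list of 2 hairpins, nearly all Mir126a, held 6.10% of counts in replicate 2 and 10.8% in replicate 1, the opposite direction to the miR-10 hairpins. The smooth muscle and pericyte list, Mir143 and Mir145a, held 4.83% and 2.94%, the same direction. The fibroblast list of 5, of which Mir199a-1 was at 0, held 0.242% and 0.624%, a difference carried by Mir214 (508 and 4251 CPM) while Mir21a stood at 1903 and 1974 CPM. The erythroid list held 0.0869% and 0.178%, the leukocyte list 0.465% and 0.465%, and the epithelial list 0.0352% and 0.0386%. The close sums of the leukocyte and epithelial lists hid members that differed in opposite directions. Leukocyte Mir150 (2509 and 1343 CPM), Mir142 (287 and 198) and Mir223 (219 and 125) were higher in replicate 2, and Mir155 (1632 and 2981) was lower. Epithelial Mir203 had 424 counts in replicate 2 and 117 in replicate 1, while Mir205 had 4 and 238. Mir200a had 4 and 2 counts, Mir200b 28 and 74, and Mir200c 478 and 361. The part of these lists in the miR-10 difference was not tested. In whole tissue, fewer cells of a type and less RNA per cell cannot be told apart.

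A site for miR-196 in a Hox message is shown because it ties the family to its own clusters. The miR-196a 5p arm was set, without gaps, against annotated 3′ untranslated regions of 21022 protein-coding genes in GENCODE M21. Hoxb8, which lies next to Hoxb9 in the cluster that holds Mir196a-1, had the most Watson-Crick pairs, 21 of 22. The remaining position was a G:U pair and lay opposite the seed. The best site outside Hoxb8 had 17. For miR-196b-5p the same Hoxb8 site had 20 Watson-Crick pairs and 1 G:U pair, so 21 of 22 positions paired. The best site elsewhere had 18 Watson-Crick pairs. The site lies at chr11:96284888-96284909 on the plus strand of mm10, and capitals mark the bases opposite the seed.

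Hoxb8 site: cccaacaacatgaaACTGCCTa

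Cleavage of Hoxb8 messages at this site by miR-196 is known from mouse embryos. Neither miR-10 5p arm reached 20 Watson-Crick pairs in any 3′ region, and the best site of miR-10a-5p and of miR-10b-5p had 18 of 23. Messenger RNA was not measured in these libraries, so none of these matches says anything about silencing in the heart.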

How the data were processed

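MicroRNA-seq libraries of 2 hearts were analysed. The authors deposited unnormalized read counts for each GENCODE M21 hairpin on mm10, per the file headers of the accompanying notes. Aligner and counter are not given in the sources used here. Counts on the hairpin's own strand were taken. Hairpin counts summed to 2661090 of 6452546 reads in replicate 2 and 2050498 of 5005996 in replicate 1. Reads outside hairpins were left out of totals: in replicate 2 and replicate 1, 41.6% and 38.5% of reads matched several places, 11.5% and 14.1% were unmapped, and 5.64% and 6.48% lay in no hairpin.

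CPM was computed over all hairpin counts. Log2 ratios are of TMM-scaled CPM with a pseudocount of 1 CPM (edgeR 4.0.16, R 4.3.3). Exact binomial tests used scipy 1.17.1 and were tested on simulated data. The simulated counts held counting error only, with no variation between animals and no amplified copies, unlike real libraries. Alternatives used other columns, totals, minimums, pseudocounts and DESeq2 1.42.0 size factors. Sequences came from RefSeq (GRCm38.p6) and GENCODE M21 transcripts.

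The text names all 6 members, other hairpins within the Hox clusters, the miR-99, miR-100 and miR-125 list, hairpins sharing a member's seed, marker lists, and the 3 nearest hairpins by level for each detected member. The members and lists were chosen with earlier results of these data known.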

Additional observations from a re-analysis of the deposited data

Results flagged for a closer look

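Reads matching several places numbered 2686901 in replicate 2 and 1925044 in replicate 1. They lie outside the hairpin counts and exceed the limit of 3 counts that an empty row would allow, which is the only reason they are listed. The identical 5p arms of Mir196a-1 and Mir196a-2 would place their reads among them, and their number there was not tested.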

How the results depend on the processing

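The alternatives were those listed with the design. Mir10a and Mir10b stayed higher in replicate 2 and past the exact binomial test in all 9 alternatives each, with log2 ratios of 0.48 to 0.71 and 0.86 to 1.09. Mir196b stayed above 0 and short of the test in its 9, at 0.02 to 0.24. All alternatives reuse the reads of the same 2 libraries, so passing again adds no independent support. Pseudocounts do not enter the test, so the alternatives that changed them could move only the ratios. The mean share of the 6 hairpins was 0.173%. It was 0.244% with counts on either strand, 0.566% without the 10 highest hairpins and 0.0711% of all reads. These totals have other denominators by construction, and CPM moves with them. Leaving out a replicate gave 0.137% to 0.209% for this share and 56.8% to 63.2% for the Mir10a share of the miR-10 pair. With at least 1 count in both libraries, 5 members passed in place of 3, and 21.8% of all hairpins did. Over all hairpins, 76 were called higher in replicate 2 by total count scaling and 74 with at least 50 counts, where 223 were tested, against 118. Each value rests on 2 animals, and counts of 5 or fewer at Mir615 and the Mir196a hairpins limit what can be said of them.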

Other observations

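The 5p arms of both families differed within the family at the same place, base 12 (U12A in miR-10 and A12C in miR-196, counted from the 5′ end), outside the seed. The 3p arms of miR-10 differed at 3 bases, A3G, U9A and A10U, the first of which lies in the seed, so the 3p arms of Mir10a and Mir10b do not share a seed. The tables do not separate the arms, and which arm gave the counts was not tested. On the strand opposite to the hairpin, Mir10a had 0 reads in replicate 2 and 3 in replicate 1, and the other 5 hairpins had 0 in both.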
